A study of Mus musculus with 4 samples.

Results

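The B cell identity genes are 9 genes that mark cells of the B lineage: Ms4a1, Cd79a, Cd79b, Pax5, Cr2, Fcer2a, Cd22, Blk and Bank1. They were found by an exact match of these symbols among the 41079 genes of the deposited count table, and all 9 had counts in each of the 4 lung libraries. A B cell carries an antigen receptor made of a membrane immunoglobulin and the CD79 heterodimer, which passes the signal to tyrosine kinases inside the cell. Coreceptors raise or dampen that signal, and activated B cells may divide in germinal centres or become plasma cells, which secrete antibody and lose most of the surface markers measured here. In allergic airway disease, IgE made by such cells arms mast cells, and B cells also gather around the airways.

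To investigate gene expression in allergic airway inflammation with and without Rab44, a large Rab GTPase with EF-hand motifs, the study sequenced whole-lung RNA of wild-type (WT) and Rab44-knockout (Rab44-KO) mice. The mice were female littermates aged 8 to 14 weeks on a C57BL/6 background, and the knockout was made with CRISPR/Cas9. The OVA-induced mice received ovalbumin (OVA, 100 μg) with the adjuvant alum intraperitoneally on days 0, 7 and 14 and OVA (100 μg in 50 μL) intranasally on days 17 to 20, and their lungs were taken on day 21. The normal mice are labelled as untreated, although the protocol text shared by all samples also mentions a PBS challenge. Each of the 4 groups, WT and Rab44-KO under normal and under OVA-induced conditions, had 1 library, and the number of mice in it is not given in the sources used here. Where 4 values stand in a row without further labels, the normal libraries come before the OVA-induced ones, and within each condition WT comes before Rab44-KO.

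The libraries held 18112901 to 19910236 counts. Rab44 itself, the targeted gene, had 251, 1, 810 and 0 counts in the 4 libraries, as the labels have it. With 1 library per group no test between conditions exists, so every value describes these libraries, and each 95% interval in parentheses covers counting error only and not the spread between mice. A log2FC is the log2 ratio of read counts relative to the TMM-scaled library size (CPM) between 2 libraries, and TMM scaling sets the bulk of genes to a ratio near 1. A gene counts as over 2-fold when its log2FC exceeds 1 in size, provided that its higher count reached 10, and the share of all such genes past the same limit is given beside the count of B cell identity genes. In bulk lung, fewer B cells and less RNA per B cell cannot be told apart.

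The 9 genes fall into 4 roles. Cd79a and Cd79b encode the signalling chains of the B cell receptor. In the GENCODE annotation of GRCm38, Cd79a lies on chromosome 7 from 24897381 to 24902197 on the plus strand and Cd79b on chromosome 11 from 106311341 to 106314762. Pax5 (chromosome 4, 44524757 to 44710487) encodes the transcription factor that commits progenitors to the B lineage. All members other than Cd79a lie on the minus strand.

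The surface proteins are encoded by Ms4a1, Cr2, Fcer2a and Cd22. Ms4a1 (chromosome 19, 11249675 to 11266241) encodes CD20, the target of B-cell-depleting antibodies. Cr2 (chromosome 1, 195136811 to 195176716) encodes the complement receptors CD21 and CD35, which B cells share with follicular dendritic cells. Fcer2a (chromosome 8, 3681737 to 3694175) encodes CD23, the low-affinity receptor for IgE. Cd22 (chromosome 7, 30865402 to 30880342) encodes an inhibitory lectin of the Siglec family that recruits the phosphatase encoded by Ptpn6. Inside the cell, Blk (chromosome 14, 63372836 to 63417037) encodes a kinase of the Src family and Bank1 (chromosome 3, 136053363 to 136326066) an adaptor of B cell receptor signalling. Exons of Cd22 overlap the antisense gene Gm29439, with which it shares 4.31% of its 150-base windows, and exons of Pax5 overlap 5730488B01Rik and Gm12462 on the other strand. The strand setting of the counting is not given in the sources used here, so reads of Cd22 and Pax5 and of these neighbours may not have been told apart.

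Sequence just upstream of the RefSeq start (GRCm38.p6) was available for 6 of the 9 genes, not for Ms4a1, Cd79b and Blk. The windows of 250 bases were searched on both strands for letters bound by factors that B cells use. The E-box CAGGTG of the E2A proteins occurred in 5 of the 6 genes, all but Pax5, and in 17.2% of 32851 promoters. Shares of all promoters are per window, whereas a gene counts here if any of its windows holds a match. Fcer2a has 3 windows, and its E-boxes lie only in that before its second start. The EBF1 palindrome CCCNNGGG occurred in Cd22 and Bank1 and in 11.8% of all promoters, and the PU.1 core GAGGAA only in Cd79a among the 6 genes and in 23.3% of all promoters. The STAT6 motif, here TTC and GAA with NNNN between them, belongs to the factor downstream of the interleukin-4 receptor and occurred in 1 of the 3 Fcer2a start regions and in 5.85% of all promoters. The octamer ATTTGCAT was found in none of these windows and in 1.6% of all promoters. None of these matches overlapped another, and a match is a description of letters and not of binding. The stretches below are shown because they hold the matches of a receptor chain, a coreceptor, an adaptor and the IgE receptor, with capitals marking the matches on either strand. They are Cd79a chr7:24897247-24897380 (plus strand), Cr2 chr1:195176720-195176969, Bank1 chr3:136326067-136326316 and Fcer2a chr8:3691010-3691039 (all minus strand), the last before an internal start and within the annotated gene.
Cd79a: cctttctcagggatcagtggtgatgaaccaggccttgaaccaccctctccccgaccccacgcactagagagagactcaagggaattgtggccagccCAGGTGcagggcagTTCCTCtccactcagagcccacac
Cr2: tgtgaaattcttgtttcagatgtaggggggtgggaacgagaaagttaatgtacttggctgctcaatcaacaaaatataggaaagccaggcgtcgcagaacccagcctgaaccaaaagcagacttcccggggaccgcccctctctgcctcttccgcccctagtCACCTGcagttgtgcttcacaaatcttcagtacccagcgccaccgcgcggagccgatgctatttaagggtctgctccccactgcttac
Bank1: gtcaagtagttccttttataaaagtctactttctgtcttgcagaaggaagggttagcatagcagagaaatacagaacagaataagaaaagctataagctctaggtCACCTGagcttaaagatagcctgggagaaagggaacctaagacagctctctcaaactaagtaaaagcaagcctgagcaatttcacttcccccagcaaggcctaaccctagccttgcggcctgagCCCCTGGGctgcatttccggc
Fcer2a: agagggtgaaTTCCCAAGAAgggccaggag

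The levels of the 9 genes were first compared within each library, per gene length, by the deposited TPM. Cd79a stood highest in every library, at 103, 69.0, 210 and 157 TPM. Cd79b came next, at 70.0, 55.4, 129 and 76.5 TPM. The receptor chains together thus made up most of the summed TPM of the 9 genes, with Cd79a alone at 36.0% to 44.9%. Ms4a1 ranked 3 in all 4 libraries, at 17.2 to 37.8 TPM. Fcer2a (13.9 to 26.3 TPM) and Cd22 (11.4 to 24.1 TPM) followed, then Blk (8.50 to 16.8 TPM) and Bank1 (7.41 to 15.5 TPM). The lineage factor Pax5 (5.57 to 11.5 TPM) and the complement receptor Cr2 (2.38 to 4.99 TPM) were lowest in every library. Fcer2a stood above Cd22 in 3 libraries and below it in OVA-induced Rab44-KO lungs, but the counting intervals of these neighbours overlapped in both OVA-induced libraries. Blk and Bank1 overlapped in all 4 libraries.

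Under normal conditions the 9 genes summed to 4153 counts (216 CPM) in WT and 3119 counts (171 CPM) in Rab44-KO lungs. Under OVA-induced conditions they summed to 8404 counts (434 CPM) in WT and 5426 counts (278 CPM) in Rab44-KO lungs. The OVA-induced libraries thus stood above the normal ones, and WT above Rab44-KO within each condition. The same order held for Ms4a1, Cd79a, Pax5, Cr2, Cd22 and Bank1 by CPM, although the intervals of Cr2, Pax5 and Bank1 overlapped between the OVA-induced libraries. Cd79b and Fcer2a departed from it, since their levels in OVA-induced Rab44-KO lungs lay within or below the interval of normal WT lungs, and Blk, Bank1, Pax5 and Cr2 did not differ between the normal libraries beyond counting error.

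**Figure D1:**
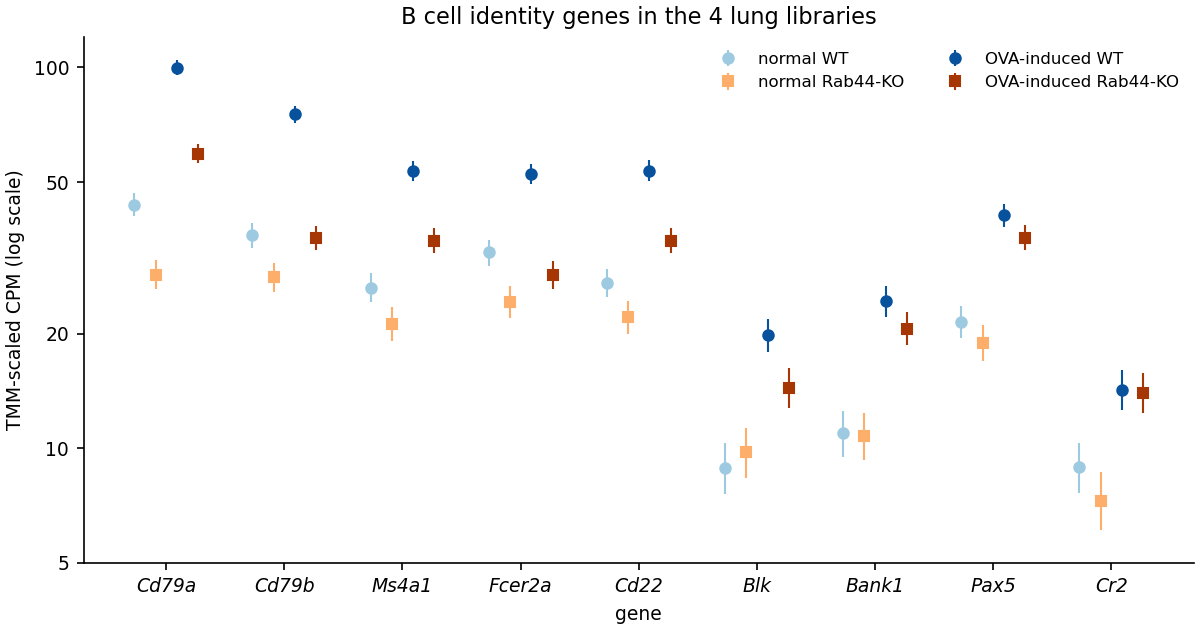
Level of each B cell identity gene in the 4 lung libraries, as TMM-scaled CPM on a log axis; points are individual libraries (circles WT, squares Rab44-KO, pale normal, dark OVA-induced) and bars are 95% counting intervals. OVA-induced WT lungs held the highest point for all 9 genes, and for Cr2 the OVA-induced WT and Rab44-KO points nearly coincide at 14.3 and 14.0 CPM.

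To determine how the B cell identity genes responded to OVA in WT lungs, the OVA-induced WT library was set against the normal WT library. All 9 genes were higher after OVA, each with a counting interval wholly above 0, a side on which 29.2% of all genes lay, while 27.4% lay below 0. Their median log2FC was 1.02, against 0.00 over 19023 genes, and 5 of the 9 were over 2-fold higher against 8.99% of all genes, and 0 over 2-fold lower against 5.2%. By TPM the median was 0.84 and 1 of the 9 was over 2-fold higher, against 6.69% of all genes. Summed over the 9 genes, the level was 2.01-fold higher, with a log2FC interval of 0.95 to 1.06.

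Cd79a had 837 counts (43.6 CPM) in normal and 1934 (99.9 CPM) in OVA-induced WT lungs, the largest log2FC of the 9 at 1.20 (1.08 to 1.31). Its partner Cd79b had 696 counts (36.2 CPM) and 1458 (75.3 CPM), a log2FC of 1.05 (0.92 to 1.19). The intervals of the receptor chains overlapped, and both were over 2-fold higher. Blk had 170 counts before and 383 after OVA, a log2FC of 1.16 (0.90 to 1.43), and Bank1 had 210 and 471, a log2FC of 1.15 (0.92 to 1.39). Ms4a1 went from 507 to 1036 counts, a log2FC of 1.02 (0.86 to 1.17). The intervals of Cd79a, Cd79b, Blk, Bank1 and Ms4a1 thus all overlapped, which is no test of a difference between them. Cd22, at 522 and 1038 counts, had a log2FC of 0.98 (0.83 to 1.13), and Pax5, at 413 and 791 counts, of 0.92 (0.75 to 1.10). The smallest responses were those of the follicular B cell receptors, with Fcer2a at 627 and 1017 counts (log2FC 0.69, 0.54 to 0.83) and Cr2 at 171 and 276 counts (log2FC 0.68, 0.40 to 0.96). Relative to the other 8 genes, Fcer2a was lower by a log2 difference of -0.37 (-0.52 to -0.21), Cr2 by -0.34 (-0.62 to -0.06), and Cd79a was higher by 0.24 (0.11 to 0.38), each beyond counting error. These differences hold the trend with gene length described below. With that trend removed, Cd79a (1.01) was the median of the 9 genes, Cr2 stood at 0.80, and Fcer2a (0.69) was still lowest.

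In Rab44-KO lungs, the same comparison used the OVA-induced and normal Rab44-KO libraries. All 9 genes were again higher after OVA with intervals above 0, against 25.4% of all genes on that side and 26.6% below 0. The median log2FC was 0.72, against -0.01 over 19073 genes, and 1 of the 9, Cd79a, was over 2-fold higher against 6.44% of all genes, and 0 over 2-fold lower against 3.85%. By TPM the median was 0.85 and 4 of the 9 were over 2-fold higher, against 6.75% of all genes, so that the order of the genotypes in this count and in the median turned. The summed level was 1.63-fold higher, a log2FC of 0.70 (0.64 to 0.77).

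Cd79a had 521 counts (28.5 CPM) before and 1158 (59.4 CPM) after OVA, a log2FC of 1.06 (0.91 to 1.21), whereas Cd79b had 514 counts (28.2 CPM) and 695 (35.6 CPM), a log2FC of 0.34 (0.17 to 0.51). The chains of the same heterodimer, nearly equal in counts in normal Rab44-KO lungs, therefore differed after OVA. Cr2 (133 and 273 counts), Bank1 (196 and 402) and Pax5 (345 and 696) had log2FC of 0.94 (0.64 to 1.25), 0.94 (0.69 to 1.19) and 0.92 (0.73 to 1.11). Ms4a1 (387 and 683 counts) and Cd22 (403 and 683) had 0.72 (0.54 to 0.91) and 0.67 (0.49 to 0.85), and Blk (178 and 281) had 0.56 (0.29 to 0.84). The smallest response was that of Fcer2a, the IgE receptor, with 442 counts before and 555 after OVA, a log2FC of 0.23 (0.05 to 0.42).

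The difference of the OVA responses, Rab44-KO minus WT, was computed from all 4 libraries. Its median over the 9 genes was -0.29 on the log2 scale, against -0.03 over 19744 genes. The response was smaller in Rab44-KO lungs, with an interval wholly below 0, for Cd79b at -0.71 (-0.92 to -0.50), Blk at -0.60 (-0.97 to -0.22), Fcer2a at -0.45 (-0.68 to -0.22), Cd22 at -0.31 (-0.55 to -0.08) and Ms4a1 at -0.29 (-0.53 to -0.06). Intervals lay below 0 for 5 of the 9 and above 0 for 0, against 26.9% and 23.8% of all genes, and 32.8% of all genes lay below the median of the 9. The intervals of Bank1 (-0.21, -0.55 to 0.13), Cd79a (-0.14, -0.33 to 0.05), Pax5 (-0.01, -0.26 to 0.25) and Cr2 (0.26, -0.14 to 0.67) included 0. By TPM, which moved the median difference of all genes by 0.29, the values of Bank1, Cd79a and Pax5 turned to 0.09, 0.16 and 0.29, and that of Ms4a1, which is also the median of the 9 genes, to 0.0052. Blk (-0.29), Fcer2a (-0.15) and Cd22 (-0.014) kept their direction by TPM with intervals that included 0. By that unit the interval lay below 0 for 1 of the 9, Cd79b at -0.41 (-0.62 to -0.20), against 12% of all genes, and above 0 for Pax5 and Cr2 (0.55), against 39%. Cd79a also turned, to 0.27, once the trend with gene length described below was removed, and Pax5, near 0, changed sign under 4 of the settings. Taken relative to the median of all genes, the median of the 9 was -0.26 by counts and -0.25 by TPM, so the smaller response was one relative to the bulk of genes.

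Under normal conditions, Rab44-KO and WT lungs were compared next. No B cell identity gene differed over 2-fold, against 2.77% of all genes higher and 2% lower. The median log2FC, Rab44-KO over WT, was -0.30 against 0.00 over 18718 genes, and 8 of the 9 values were below 0. Counting intervals lay wholly below 0 for 5 of the 9, against 14.8% of all genes, and above 0 for none, against 14.6%. These were Cd79a at -0.61 (-0.77 to -0.45), Fcer2a at -0.43 (-0.61 to -0.25), Cd79b at -0.36 (-0.53 to -0.20), Ms4a1 at -0.32 (-0.51 to -0.12) and Cd22 at -0.30 (-0.49 to -0.11). Cr2 (-0.29, -0.63 to 0.05), Pax5 (-0.19, -0.40 to 0.02), Bank1 (-0.03, -0.31 to 0.26) and Blk (0.14, -0.17 to 0.45) had intervals that included 0. The 837 Cd79a counts in WT lungs against 521 in Rab44-KO lungs were the clearest separation, 1.53-fold lower, and Blk, with 170 and 178 counts, did not follow it. The summed level of the 9 genes was 1.27-fold lower in Rab44-KO mice, with -0.34 on the log2 scale (-0.41 to -0.27).

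Under OVA-induced conditions, all 9 values were below 0 in Rab44-KO compared with WT lungs by TMM scaling. Those of Bank1, Pax5 and Cr2 turned by TPM, and that of Cr2 also by total counts (below). The median log2FC was -0.61 against -0.02 over 19259 genes, and was -0.28 by TPM and -0.38 with the length trend removed. Counting intervals lay wholly below 0 for 8 of the 9 genes, all but Cr2, against 33.8% of all genes on that side, and 1 gene, Cd79b, was over 2-fold lower against 7.34% of all genes, a call that ended by TPM and with the length trend removed, while 0 were over 2-fold higher against 8.4% and 0 had an interval above 0 against 29.7%. The summed level was 1.56-fold lower, a log2FC of -0.64 (-0.69 to -0.59). This comparison shares a library with each of the OVA responses above, so their values are not independent.

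Between the OVA-induced WT and Rab44-KO libraries, Cd79b had 1458 counts (75.3 CPM) against 695 (35.6 CPM), 2.11-fold lower, a log2FC of -1.08 (-1.21 to -0.95). Fcer2a had 1017 counts (52.5 CPM) and 555 (28.5 CPM), 1.84-fold lower, a log2FC of -0.88 (-1.04 to -0.73). Cd79a had 1934 counts (99.9 CPM) and 1158 (59.4 CPM), 1.68-fold lower, a log2FC of -0.75 (-0.86 to -0.64). Ms4a1 and Cd22 had the same 683 counts in Rab44-KO lungs and 1036 and 1038 in WT lungs, each with a log2FC of -0.61 (-0.75 to -0.47). Blk, at 383 and 281 counts, had a log2FC of -0.46 (-0.68 to -0.23).

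The remaining genes differed little. Bank1 had 471 WT and 402 Rab44-KO counts (-0.24, -0.43 to -0.04), and Pax5 had 791 and 696 (-0.19, -0.34 to -0.05). Cr2 had 276 and 273 counts, a log2FC of -0.03 (-0.27 to 0.22) that excludes a 2-fold difference by counting error. These 3 directions depended on the scaling, since by TPM, which moved the median of all genes by 0.32, they turned to 0.09 for Bank1, 0.13 for Pax5 and 0.29 for Cr2, and by total counts to 0.04 for Cr2. Relative to the other 8 genes, which needs no scaling between libraries, Cd79b was lower by a log2 difference of -0.51 (-0.66 to -0.37), Fcer2a by -0.27 (-0.43 to -0.11) and Cd79a by -0.14 (-0.26 to -0.02). On the same measure Cr2 was higher by 0.64 (0.40 to 0.89), Pax5 by 0.50 (0.35 to 0.66) and Bank1 by 0.43 (0.23 to 0.63). This measure still holds the trend with gene length described below, and with that trend removed Pax5 (-0.51) lay below the median of the 9 genes (-0.38) and Cd79a (-0.27) above it. The 9 genes therefore did not move by a common factor between the OVA-induced libraries.

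**Figure D2:**
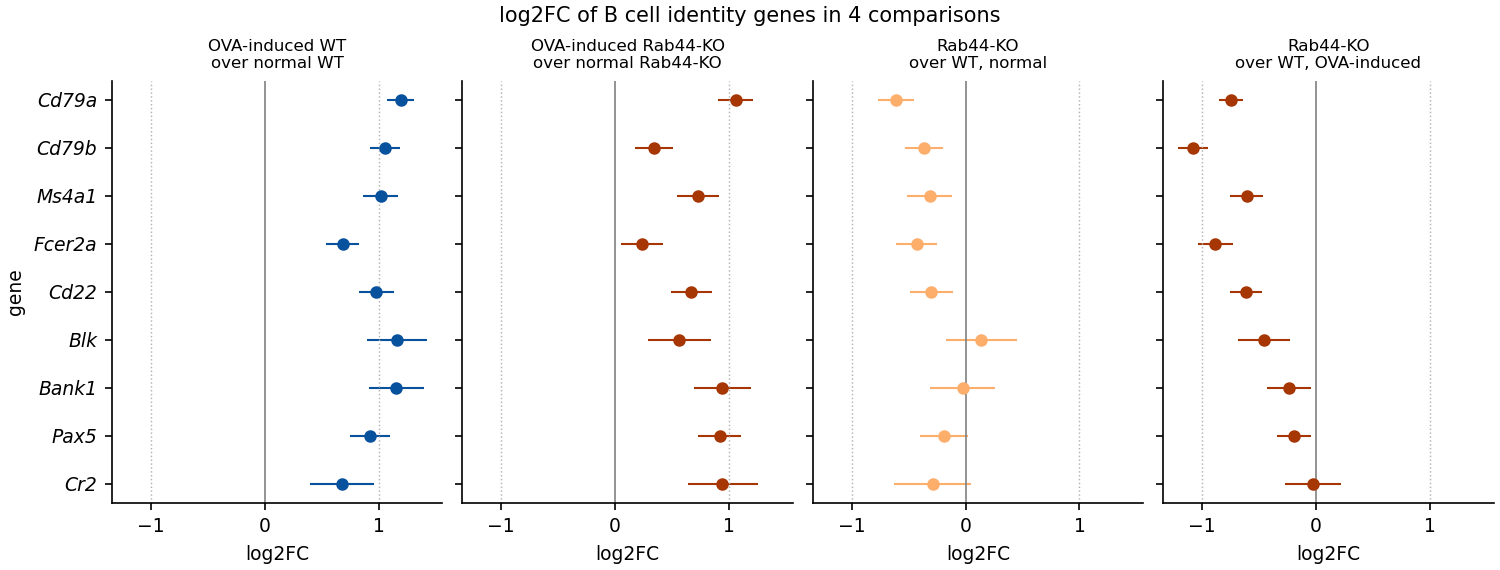
log2FC (x axis) of each B cell identity gene (y axis) in the 4 comparisons; points are ratios of 2 libraries, bars 95% counting intervals, and dotted lines mark 2-fold. All 9 points lie right of 0 in both OVA responses, and in OVA-induced Rab44-KO over WT lungs they spread from -1.08 (Cd79b) to -0.03 (Cr2), with Bank1, Pax5 and Cr2 changing sign by TPM.

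The unequal movement can be read from pairs of genes within a library. The ratio of Cd79a to Cd79b counts was 1.20 (1.09 to 1.33), 1.01 (0.90 to 1.15), 1.33 (1.24 to 1.42) and 1.67 (1.52 to 1.83) in the 4 libraries. The interval of OVA-induced Rab44-KO lungs lay above the other 3. The ratio of Fcer2a to Cr2 counts was 3.67, 3.32, 3.68 and 2.03, where the last interval (1.76 to 2.36) lay below the others, which overlapped. The ratio of Pax5 to Ms4a1 counts was 0.81 (0.71 to 0.93), 0.89 (0.77 to 1.03), 0.76 (0.70 to 0.84) and 1.02 (0.92 to 1.13). Its intervals were separate between the OVA-induced libraries but overlapped between the Rab44-KO ones, and with the length trend removed Pax5 (-0.51) was below Ms4a1 (-0.38) in OVA-induced Rab44-KO over WT lungs.

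The order of the 9 genes in the OVA-induced Rab44-KO over WT comparison went partly with their length. Gene lengths implied by the ratio of counts to TPM, relative to Bank1, ran from 0.29 for Cd79a and 0.35 for Cd79b over 0.71 for Blk, 0.85 for Ms4a1, 1.20 for Fcer2a and 1.34 for Cd22 to 2.11 for Cr2 and 2.34 for Pax5. Spearman's rho between log2FC and length was 0.62 over the 9 genes, a description over genes of the same 2 libraries. All genes showed the same slope, with the running median over genes of like length at -0.48 for Cd79a and 0.31 for Pax5. With that running median removed, a setting chosen after seeing the data, all 9 values were below 0, from -0.88 (Fcer2a) to -0.14 (Bank1) with a median of -0.38, and rho became -0.32. Fcer2a was then lowest, ahead of Cd22 at -0.70, Cd79b at -0.65 and Pax5 at -0.51, and Cr2 was at -0.31. The over-2-fold count went from 1 to 0.

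Under normal conditions the slope was shallow, with medians of like length between -0.08 and 0.05 at the 9 genes. In OVA-induced over normal WT lungs the slope ran the other way, from 0.19 at the length of Cd79b to -0.17 at that of Pax5, and rho over the 9 genes went from -0.83 to 0.13 on its removal, with the median at 1.01, the value of Cd79a. In OVA-induced over normal Rab44-KO lungs the medians of like length ran from -0.22 at Cd79a to 0.11 at Pax5, and on their removal Cd79a went from 1.06 to 1.27 and rho from 0.07 to -0.05. What underlies this slope was not tested.

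**Figure D3:**
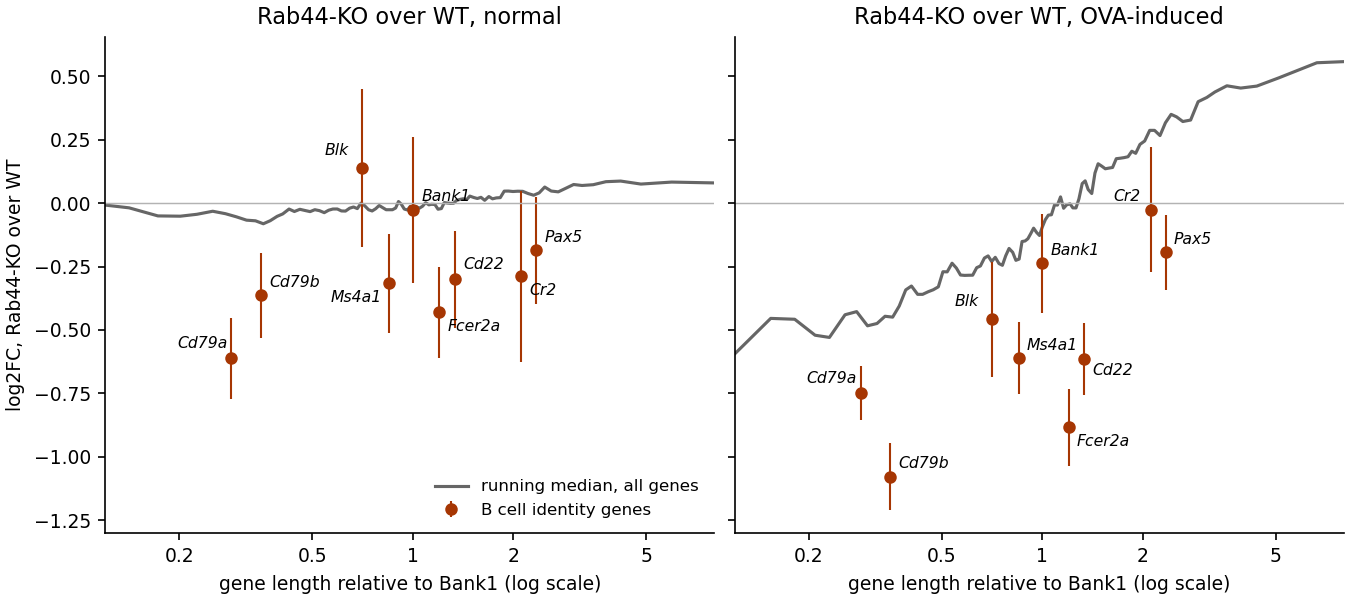
log2FC of Rab44-KO over WT lungs against gene length relative to Bank1 (log x axis) under normal (left) and OVA-induced (right) conditions; points are the B cell identity genes with 95% counting intervals and the line is the running median over all genes. In the right panel the line climbs with length and all 9 points lie below it, while in the left panel the line is nearly flat.

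Other genes with roles in B cells were read from lists of textbook roles. Many of them are not restricted to B cells, so in whole lung their values cannot be assigned to the B lineage. Of 19 genes of B cell receptor signalling, 17 had intervals above 0 after OVA in WT lungs, against 29.2% of all genes. In Rab44-KO lungs 13 did, against 25.4%, and the median log2FC were 0.83 (WT) and 0.50 (Rab44-KO). In OVA-induced Rab44-KO compared with WT lungs, 14 had intervals below 0 and 2 above, against 33.8% and 29.7% of all genes. The median was -0.36, and -0.04 by TPM. The tyrosine kinase gene Btk (609 and 316 counts, log2FC -0.96) and the adaptor gene Blnk (377 and 200 counts, -0.92) were lowest. The kinase gene Prkcb, with 1059 and 1020 counts (-0.06), had an interval that included 0.

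The list of inhibitory receptors and coreceptors held 14 genes. All 14 had intervals above 0 after OVA in WT lungs, against 29.2% of all genes, and 8 in Rab44-KO lungs, against 25.4%. The medians were 1.06 (WT) and 0.34 (Rab44-KO). In OVA-induced Rab44-KO compared with WT lungs 13 had intervals below 0, against 33.8% of all genes, and 4 were over 2-fold lower, against 7.34%. The list median was -0.69, and was -0.36 by TPM and -0.44 with the length trend removed. Cd72, a lectin-like inhibitor of the B cell receptor, had 706 and 262 counts (-1.44). Fcgr2b, the inhibitory IgG receptor, which macrophages also carry, had 341, 349, 1519 and 585 counts in the 4 libraries (-1.39 between the OVA-induced ones). Ptpn6, which encodes the phosphatase that acts downstream of CD22, had 2337 and 1475 counts (-0.67), close to Cd22 itself at -0.61. Fcrla, at 386 and 184 counts (-1.08), was also over 2-fold lower.

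Of 15 transcription factors that act in the B lineage, 10 had intervals above 0 after OVA in each genotype, against 29.2% (WT) and 25.4% (Rab44-KO) of all genes. Intervals lay below 0 for 5 in WT lungs, near the 27.4% of all genes, and for 1 in Rab44-KO lungs, against 26.6%. In OVA-induced Rab44-KO compared with WT lungs, 8 had intervals below 0 and 5 above, against 33.8% and 29.7% of all genes, with a median of -0.18 that turned to 0.14 by TPM. Irf4, which activated B cells and plasma cells use, had 603 and 195 counts (-1.64). The coactivator gene Pou2af1 had 1102 and 862 counts (-0.36). Bach2, which holds B cells in the naive and memory states, went the other way with 358 and 655 counts (0.86). It is a long gene, and the median of genes of like length was 0.58.

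Genes of homing and survival had the lowest median among the B cell lists in OVA-induced Rab44-KO over WT lungs, -0.92, which was -0.59 by TPM and -0.63 with the length trend removed. After OVA, 14 of 16 had intervals above 0 in WT lungs, against 29.2% of all genes, and 5 did in Rab44-KO lungs, near the 25.4% of all genes, the medians being 1.17 and 0.31. Comparing the OVA-induced libraries, 13 were lower in Rab44-KO lungs against 33.8% of all genes, 6 of them over 2-fold against 7.34%, and 1 was higher. Ltb, a lymphotoxin chain that organises B cell follicles, had 951 and 328 counts (-1.54), and Tnfrsf13c, the BAFF receptor, 257 and 92 counts (-1.49). The chemokine gene Cxcl13, which draws B cells into follicles, had 61, 70, 227 and 135 counts in the 4 libraries. Ccl20, the ligand of CCR6, had 0 counts in normal WT and 109 in OVA-induced WT lungs, at least 36.0-fold higher when 3 counts are taken as the floor, and 12 in OVA-induced Rab44-KO lungs.

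Of 18 other genes of naive and memory B cells, 8 were over 2-fold lower in OVA-induced Rab44-KO than WT lungs, against 7.34% of all genes. In the same comparison 1 was over 2-fold higher, against 8.4%, and the median was -0.85 (-0.52 by TPM). That list includes Scd1 and Cd74, which other lung cells also express, and Cd74 (44815 and 15341 counts) had -1.56. The germinal centre list could be read only in part, since 7 of its 11 genes reached 10 counts. Mki67, a proliferation marker of any cell type, had 280, 384, 604 and 250 counts (-1.28 between the OVA-induced libraries).

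Plasma cell genes had a median log2FC of 1.38 after OVA in WT lungs, where the B cell identity genes had 1.02, and of 0.35 in Rab44-KO lungs, where the B cell identity genes had 0.72. Of 13 genes, 8 were over 2-fold higher after OVA in WT lungs, against 8.99% of all genes. In OVA-induced Rab44-KO compared with WT lungs 6 were over 2-fold lower, against 7.34%, with a list median of -0.71 (-0.38 by TPM). Jchain, which joins IgM and IgA polymers, had 266, 521, 15799 and 4761 counts in the 4 libraries. Ighm, the IgM heavy chain gene, which B cells also express, had 2103, 2070, 56984 and 9570 counts in the same order. Mzb1, a chaperone of antibody secretion, had 98, 74, 956 and 185 counts. Not every gene of the list rose. After OVA, 11 of 13 had intervals above 0 in WT lungs and 1 below, against 29.2% and 27.4% of all genes. In Rab44-KO lungs 7 of 12 lay above 0 and 3 below, against 25.4% and 26.6%. Prdm1 had log2FC of -0.32 (-0.54 to -0.10) in WT and -0.29 (-0.51 to -0.07) in Rab44-KO lungs. Sdc1 had -0.03 (-0.08 to 0.03) and -0.19 (-0.25 to -0.13) in the same order.

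Set against the B cell identity genes within each library, the number of Jchain counts per Ms4a1 count was 0.525 (0.451 to 0.610), 1.35 (1.18 to 1.54), 15.25 (14.3 to 16.3) and 6.97 (6.43 to 7.56). The ratio of Ighm to Ighd counts, a gene that naive B cells express and plasma cells do not and that was chosen after its values were seen, was 4.01, 4.98, 66.8 and 12.1 in these libraries. Both ratios were thus higher after OVA in each genotype, and both were higher in WT than in Rab44-KO lungs under OVA-induced conditions and lower under normal conditions. The part of plasma cells in the values of the 9 genes was not tested.

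**Figure D4:**
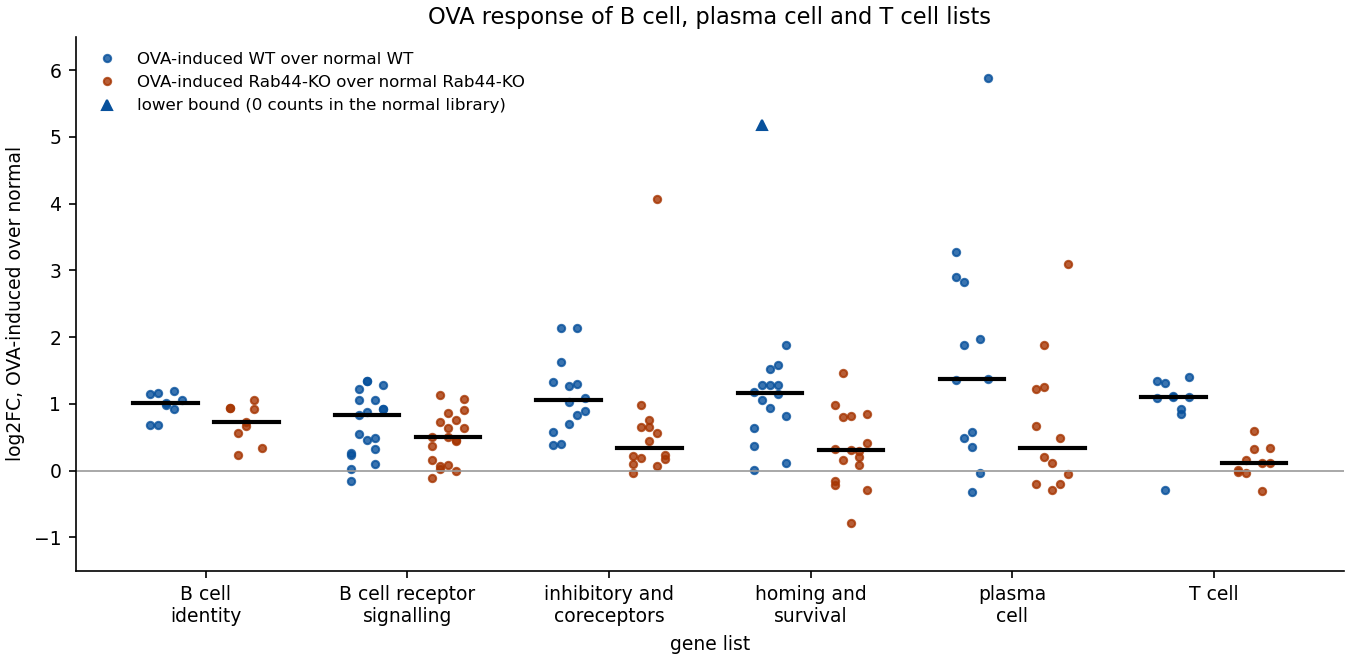
OVA response (log2FC, y axis) of the B cell identity genes and of 5 other gene lists, in WT (blue) and Rab44-KO (brown) lungs; each point is a gene whose higher count reached 10, bars are list medians, and the triangle is Ccl20 at its lower bound. Medians are higher in WT for all 6 lists, at 1.02 against 0.72 for the B cell identity genes and at 1.10 against 0.11 for the T cell list, whereas by TPM the order turned for the B cell identity genes (0.84 and 0.85) and held for the other 5 lists; the Rab44-KO point at 4.07 is Fcrl5, which went from 1 to 20 counts.

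Markers of other cell types moved beside the 9 genes. Of 10 T cell genes, 9 had intervals above 0 after OVA in WT lungs, against 29.2% of all genes, and 2 in Rab44-KO lungs, against 25.4%, with medians of 1.10 and 0.11. In OVA-induced Rab44-KO compared with WT lungs 8 were lower, against 33.8% of all genes, with a median of -0.93 (-0.60 by TPM). Their summed level was 103, 100.3, 194 and 109 CPM, with none at 0. The ratio of Ms4a1 to Cd3e counts was 4.69 (3.81 to 5.83), 3.62 (2.91 to 4.52), 3.60 (3.15 to 4.11) and 4.74 (3.96 to 5.72), and all 4 intervals overlapped. This single pair does not stand for the list. After OVA in Rab44-KO lungs the T cell genes ran from -0.30 to 0.60, all below Ms4a1 at 0.72. Between the OVA-induced libraries they ran from -1.42 (Cd2) to 0.35, where Ms4a1 had -0.61. Under normal conditions the T cell list had a median of 0.02 in Rab44-KO over WT lungs, where the B cell identity genes had -0.30.

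Eosinophil genes, a hallmark of allergic airways, had median log2FC values of 1.83 (WT) and 0.48 (Rab44-KO) after OVA and of -1.59 in OVA-induced Rab44-KO over WT lungs (-1.25 by TPM). Their summed level went from 113 to 263 CPM in WT and from 112 to 144 CPM in Rab44-KO lungs, while the defining gene Epx had 0, 0, 1 and 0 counts. The follicular dendritic and lymphoid stroma list, which matters for Cr2, summed to 492, 513, 595 and 470.1 CPM. In normal WT lungs 1 gene held 3423 of its 9445 counts and Pdpn 3017, so the sum says little about the other members. After OVA in WT lungs, 5 of 8 genes had intervals above 0 and 1 below, against 29.2% and 27.4% of all genes. Cxcl13 had log2FC of 1.88 (WT) and 0.85 (Rab44-KO) after OVA and Fcamr 1.58 and 1.56, where Cr2 had 0.68 and 0.94. The median of this list in OVA-induced Rab44-KO over WT lungs was -0.52 over 8 genes (-0.20 by TPM), whereas Cr2 had -0.03. Of the 8 genes, 7 had intervals below 0, against 33.8% of all genes. The exception was Fcamr, with 290 and 264 counts (-0.14, -0.39 to 0.10), and Madcam1, another listed gene, had 0 to 2 counts in every library. Plasmacytoid dendritic cell genes had a median of 0.28 (0.60 by TPM) in OVA-induced Rab44-KO over WT lungs, with Siglech at 51, 162, 62 and 172 counts in the 4 libraries (1.46, and 1.74 between the normal ones) and Bst2 going the other way at 2305 and 1361 counts in the OVA-induced ones (-0.77, -0.87 to -0.67). The part of these cell types in the values of the 9 genes was not tested.

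Signals that act on B cells in type 2 immunity were sparse. Il4 had 6, 7, 17 and 6 counts and Il13 had 1, 0, 13 and 0 counts. Il4ra, the interleukin-4 receptor chain upstream of Fcer2a induction, had 2581 and 3532 counts in OVA-induced WT and Rab44-KO lungs (0.44), and thus went the opposite way to Fcer2a. Stat6 had 3310 and 3374 counts (0.02). The 10 listed genes had medians of 0.51 after OVA in WT and -0.54 (-0.21 by TPM) in OVA-induced Rab44-KO over WT lungs, over the 10 and 9 genes that reached 10 counts.

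The families to which 3 of the genes belong were compared as well. Among the Ms4a family, 11 of the 16 relatives of Ms4a1 reached 10 counts, with medians of 1.10 and 0.62 after OVA in WT and Rab44-KO lungs and -0.60 (-0.28 by TPM) between the OVA-induced libraries, near those of Ms4a1. The largest values in it were those of Ms4a7 (332 and 74 counts, -2.17) and Ms4a6d (578 and 178 counts, -1.71), which macrophages express. Among 7 measured relatives of Cd22 in the Siglec family, 3 were lower and 3 higher in OVA-induced Rab44-KO than WT lungs, with a median of 0.11 (0.43 by TPM). With 33.8% of all genes lower and 29.7% higher, this split was near the background. Cd33 had 356 and 641 counts (0.84) and Siglecf, an eosinophil and alveolar macrophage receptor, 407 and 175 counts (-1.23). The other Src family kinases had a median of -0.10 that turned to 0.22 by TPM, and the T cell kinase gene Lck, at 629 and 272 counts (-1.22), was the lowest.

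Finally, the genes whose pattern over the 4 libraries lay nearest to the mean pattern of the 9 were ranked among the 13890 genes that reached 100 counts somewhere. Likeness was the root mean square distance between centred log2 CPM. The 8 nearest were Gm51686 (0.02), Dok3 (0.02), Carmil2 (0.03), Prkcd (0.03), Pstpip2 (0.03), Lgals2 (0.04), Fxyd5 (0.05) and Ptpn6 (0.05). Within the 9 genes, each set against the mean of the other 8, Cd22 (0.04) and Ms4a1 (0.04) lay nearest and Fcer2a (0.27), Cd79b (0.23) and Cd79a (0.23) farthest. Dok3, an adaptor that dampens B cell receptor signalling, had 350, 287, 713 and 480 counts, and Ptpn6 had 1132, 874, 2337 and 1475. With 4 libraries, many genes of unrelated function can share a pattern.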

How the data were processed

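Lung RNA of 4 mouse groups was measured by RNA-seq, with 1 library per group. The deposited count table holds raw read counts per gene, which the authors made from 150-bp paired-end reads of a directional library by alignment to GRCm38 with HISAT2 and counting with featureCounts, per the labels and methods; versions and the strand and multi-mapping settings are not given in the sources used here. The deposited TPM table equals those counts divided by 1 length per gene and scaled to a common sum by the authors, as checked on 15583 well-counted genes. Samples were grouped by their labelled genotype and treatment.

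From the counts, TMM factors (0.973 to 1.02) were computed with edgeR 4.0.16 in R 4.3.3, and log2FC with a prior count of 0.125, without any test, since no residual degrees of freedom remain. The study names DESeq2, which needs replicates to test. Intervals are 95% Clopper-Pearson intervals of the count ratio, or Poisson intervals for levels and, by normal approximation with 0 counts entered as 0.125, for differences of responses; reads carry no molecular identifiers, so they cover counting error only. TPM served for levels between genes and, with a pseudocount of 0.1, as an alternative. The calculation was tested on simulated data. Gene starts in the deposited table matched RefSeq on GRCm38 for 787 of 36986 genes (2.13%), so positions were taken from GENCODE instead. Promoters are from RefSeq (GRCm38.p6).

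Named genes were the 9 members, from each other list the 3 with the largest change in OVA-induced Rab44-KO over WT and the 3 with the largest in OVA-induced over normal WT lungs (at least 50 counts), the 8 nearest patterns and Rab44. Epx, Fcrl5, Ighd, Il4, Il13, Madcam1, Prdm1, Scd1, Sdc1 and Stat6 fall outside this rule and were chosen after their values were seen. Some genes of the lists are not reported here. The members and all lists were chosen with earlier results of these data known. Alternatives were other scalings (DESeq2 1.42.0 size factors, total counts, TMM on 2 libraries, TMM leaving out immunoglobulin genes), prior count 2, filters of 1 and 50 counts, a 4-fold limit, thinned counts, TPM, and removal of the trend with length.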

Additional observations from a re-analysis of the deposited data

Results flagged for a closer look

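None of the 9 B cell identity genes moved in opposite directions between the compared conditions with both counting intervals off 0. Among the other named genes, 10 did, and for each the difference was not tested, since there is 1 library per group.

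After OVA, Ccr3, the eotaxin receptor, had log2FC values of 2.09 (WT) and -0.80 (Rab44-KO). Cd83, an activation marker, had 1.51 and -0.47, Cd74, the class II chaperone, 1.28 and -0.35, and Mki67 1.10 and -0.71. Siglecf had 0.59 and -0.44, Ccl21a, a lymphoid chemokine gene, 0.41 and -0.18, and Bst2 0.20 and -0.64. Bach2 was the only one of these with the opposite order, at -0.26 in WT and 0.70 in Rab44-KO lungs. With the trend with gene length removed, the opposite directions ended for Bach2 (0.11 and 0.68) and Ccl21a (0.21 and 0.03), and Bst2 stood at 0.01 in WT lungs.

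In Rab44-KO over WT lungs, Jchain had 1.04 under normal conditions and -1.74 after OVA on the log2 scale. Mki67 had 0.53 and -1.28, Ccr3 0.50 and -2.39, Cd4 0.50 and -0.84, and Cd74 0.074 and -1.56 in the same comparison.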

How the results depend on the processing

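The 4 comparisons share libraries, and depth and the single library per group limit every value. All 5 medians kept their direction under each of the 11 alternative settings that gave a value, except the difference of the OVA responses, which went from -0.29 to 0.0052 by TPM. The medians ranged from 0.84 to 1.02 for the OVA response in WT, from 0.72 to 0.85 in Rab44-KO, from -0.31 to -0.27 for Rab44-KO over WT under normal conditions and from -0.62 to -0.28 under OVA-induced conditions. By TPM the OVA response in WT was 0.84 with 1 gene over 2-fold higher, that in Rab44-KO lungs had 4 genes over 2-fold higher, and OVA-induced Rab44-KO over WT was -0.28 with 0 genes over 2-fold lower. TPM moved the median of all genes by -0.17, 0.12, 0.03 and 0.32 in the 4 comparisons, and relative to it the medians of the 9 genes were 1.01, 0.73, -0.30 and -0.58, against 1.01, 0.73, -0.30 and -0.59 by TMM. With the trend with length removed, chosen after seeing the data, OVA-induced Rab44-KO over WT was -0.38 with 0 genes over 2-fold lower. Beyond a 4-fold limit, 0 genes remained in the OVA responses of WT and Rab44-KO lungs and in OVA-induced Rab44-KO over WT lungs. Of 468 values of single genes under these settings, 13 changed sign and 33 left their counting interval, 21 by TPM and 12 with the trend removed. Leaving out a replicate was not possible. No paired analysis was possible because each group has 1 library and the labels carry no replicate numbers.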
